A study of Mus musculus with 22 samples.

Results

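Transcripts of blood cells, 10 in number, were followed in mouse spinal cord: 5 are made by red cells and their precursors (Hbb-bs, Hba-a1, Hba-a2, Alas2 and Slc4a1) and 5 are carried by neutrophils (S100a8, S100a9, Ngp, Ltf and Lcn2). They were taken by gene symbol, and all 10 were found among the 38924 gene IDs of the expression tables. RNA was sequenced from 22 libraries of whole spinal cord of mice aged 7 months on a mixed B6N;B6J background. The mice were wild type (WT, 6 libraries), carried 1 E196K allele of Yars, the gene of tyrosyl-tRNA synthetase (HET, 6 libraries), or carried 2 (HOM, 10 libraries). The labels name no treatment and do not say how the allele was made. Libraries are numbered within a genotype in the order of deposition, and HOM 3, the third E196K/E196K library in that order, is shown with and without every comparison because it held more of each of the 10 transcripts than any other library.

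Red cells carry hemoglobin, a tetramer of alpha and beta globin chains that each bind a heme, and the globin messages persist in young red cells after the nucleus is lost. Neutrophils are short-lived white cells that leave the bone marrow with granules already filled, so granule genes such as Ngp and Ltf are read mostly in marrow precursors, while S100a8 and S100a9 messages remain abundant in circulating cells. Healthy spinal cord makes few of these transcripts itself, apart from Lcn2, which reactive astrocytes can also make, and low globin levels that have been described in neurons and glia. In bulk tissue, more cells of a type and more RNA per cell cannot be told apart.

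The sequences just before the start sites are shown because the 5 red cell genes and the 5 neutrophil genes are each read together as a programme of 1 lineage. RefSeq (GRCm38.p6) held a start window for 9 of the 10 genes, with no entry used for Slc4a1. The 250 bases before each start were searched on both strands for GATAA, the core recognised by GATA1, for CACCC, a core recognised by KLF1, and for TTNNGNAA, a loose form of the site of C/EBP factors. No match of 1 motif overlapped a match of another in these windows. The printed stretches end before the first start annotated in GENCODE M21, and capitals mark GATAA or its reverse complement in the red cell genes and TTNNGNAA or its reverse complement in the neutrophil genes. They are Hbb-bs at chr7:103828097-103828178 (minus strand), Hba-a1 at chr11:32283422-32283510 (plus), Alas2 at chrX:150547167-150547374 (plus), S100a8 at chr3:90668821-90668977 (plus) and Ngp at chr9:110419558-110419746 (plus).
Hbb-bs: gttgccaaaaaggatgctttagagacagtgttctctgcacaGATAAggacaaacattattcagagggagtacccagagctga
Hba-a1: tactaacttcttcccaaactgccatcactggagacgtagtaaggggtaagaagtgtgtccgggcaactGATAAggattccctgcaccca
Alas2: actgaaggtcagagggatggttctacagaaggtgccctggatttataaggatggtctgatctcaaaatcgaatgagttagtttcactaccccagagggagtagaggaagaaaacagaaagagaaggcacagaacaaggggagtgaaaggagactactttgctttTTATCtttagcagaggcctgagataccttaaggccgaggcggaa
S100a8: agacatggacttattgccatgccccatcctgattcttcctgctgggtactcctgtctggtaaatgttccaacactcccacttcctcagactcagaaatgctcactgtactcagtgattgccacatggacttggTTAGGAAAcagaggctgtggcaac
Ngp: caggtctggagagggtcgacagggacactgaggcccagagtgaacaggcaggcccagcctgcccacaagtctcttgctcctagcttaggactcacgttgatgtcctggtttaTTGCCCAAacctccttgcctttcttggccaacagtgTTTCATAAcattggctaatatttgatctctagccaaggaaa

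GATAA was found in the windows of Hbb-bs, Hba-a1, Hba-a2 and Alas2, which are all 4 red cell genes with a window, and also in those of S100a9 and Ltf. Among 32851 RefSeq windows of the same length, 22.6% held it. CACCC was found in 6 of the 9 windows, those of the same 4 red cell genes, S100a9 and Ltf, against 52.0% of all windows. TTNNGNAA was found in 8 of the 9, all but Alas2, against 36.8% of all windows. Ngp held 3 matches of it, S100a9 and Ltf 2 each. A match is a string of letters in a window and no measure of binding.

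The pair of alpha globin genes must be read with care, because their coding sequences are almost the same. Hba-a1 and Hba-a2 each have 429 coding bases in GENCODE M21, and they differ at 1 of them, C381T, counted from the A of the start codon with the base of Hba-a1 first. The encoded chains of 142 residues are identical. The coding stretch around that base, from base 367 to base 395, is shown with the differing base in capitals.
Hba-a1: catgcctctctggaCaaattccttgcctc
Hba-a2: catgcctctctggaTaaattccttgcctc
Hbb-bs and its neighbour Hbb-bt likewise differ at 1 of 444 coding bases (C417T, Hbb-bs first) and encode the same 147 residues. The expected counts of such copies rest on how the counting model split shared reads, so sums over the alpha pair and over the beta pair are given beside the single genes.

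The libraries held 24.45 M to 42.81 M counts each. All 8 genes checked for cord tissue were detected in every library, and their summed level was 14800 CPM (counts scaled to a common library total) in HOM 3 against 17800 to 21800 CPM in the other 21. HOM 3 also held 500 CPM of Prx, a myelin gene of peripheral nerve, where no other library passed 1.31 CPM. Its lists of peripheral nerve genes (3510 CPM against 128 to 145 CPM) and of fibroblast genes (528 CPM against 64.5 to 81.7 CPM) were high as well, with no listed gene at 0. The part of these tissues in the results for HOM 3 was not tested. Since no label ties each library to its own animal, p-values here reflect how far these libraries scatter, which may be technical in part.

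The globin transcripts overlapped between the genotypes, and a few HOM libraries held the highest levels. Hbb-bs, the adult beta globin at chr7:103826534-103828096, ran from 124 to 226 CPM in WT (median 169), from 138 to 264 CPM in HET (median 183) and from 109 to 781 CPM in HOM (median 181). The 3 highest libraries were HOM 3 at 781, HOM 9 at 528 and HOM 7 at 364 CPM, and the other 7 HOM libraries lay between 109 and 197 CPM, inside or below the WT range. Hba-a1 (chr11:32283511-32284465) ran from 55.8 to 117 CPM in WT (median 76.9), from 66.5 to 140 CPM in HET (median 91.1) and from 49.0 to 420 CPM in HOM (median 88.2). Hba-a2 (chr11:32296489-32297298) ran from 42.2 to 131 CPM in WT (median 73.7), from 48.8 to 97.3 CPM in HET (median 64.8) and from 51.6 to 559 CPM in HOM (median 106). As a sum of both alpha genes the medians were 156 CPM in WT, 153 CPM in HET and 172 CPM in HOM, with HOM 3 at 980 CPM and HOM 9 at 412 CPM. For each globin gene the HOM range reached above those of WT and HET, and the lower HOM libraries overlapped both.

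Alas2, the enzyme of the first step of heme synthesis in red cell precursors (chrX:150547375-150570638), followed Hbb-bs and Hba-a1 in its highest libraries. It ran from 4.97 to 9.16 CPM in WT (median 6.13), from 5.25 to 9.33 CPM in HET (median 6.97) and from 4.91 to 34 CPM in HOM (median 7.41), again with HOM 3 highest at 34, then HOM 9 at 18.7 and HOM 7 at 14.1 CPM. Slc4a1, the band 3 anion exchanger of the red cell membrane (chr11:102348824-102366203, minus strand), was rare. It ran from 0.0613 to 0.488 CPM in WT (median 0.348), from 0.174 to 0.978 CPM in HET (median 0.348) and from 0.149 to 51.9 CPM in HOM (median 0.560). Here HOM 3 was followed by HOM 2 at 2.35 and HOM 7 at 1.24 CPM, so that the order differed from that of Hbb-bs and Hba-a1. The order of Hba-a2 differed from theirs too, with HOM 5 at 184 and HOM 9 at 162 CPM after HOM 3.

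**Figure D1:**
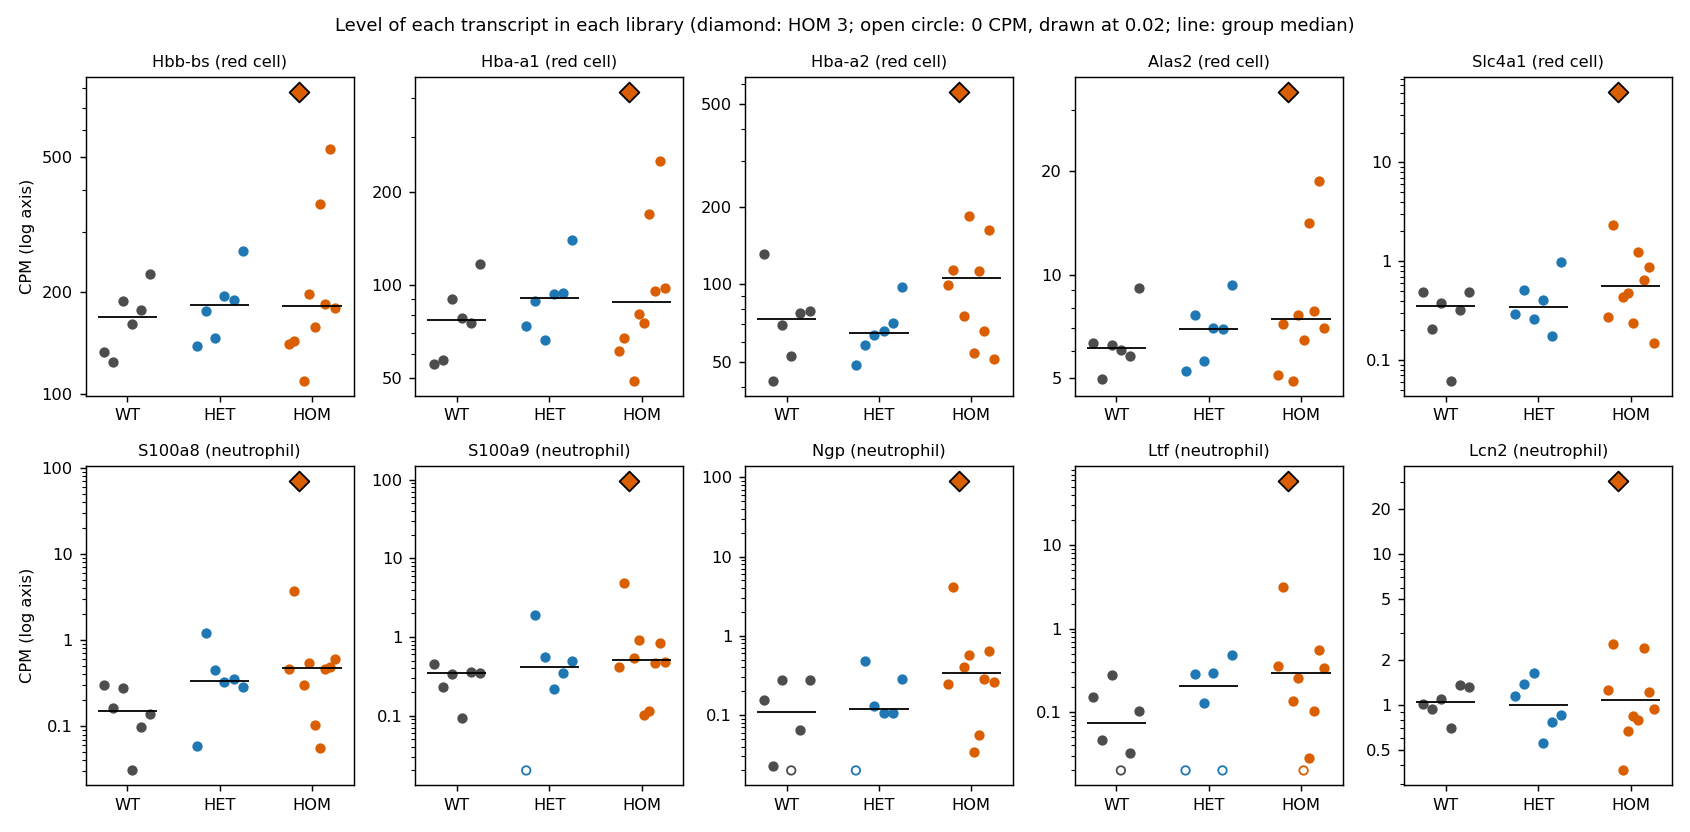
CPM of each of the 10 transcripts (log axis, a scale for each panel) in 6 WT, 6 HET and 10 HOM libraries; a circle is a library, the diamond is HOM 3, an open circle at the bottom is a library with 0 counts and the line is the group median. HOM 3 lies highest in all 10 panels, and the other libraries of the 3 genotypes overlap.

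The neutrophil transcripts were near the limit of detection in most cords. S100a8 (chr3:90668978-90670035), a subunit of the calprotectin dimer of neutrophil cytosol, ran from 0.0306 to 0.305 CPM in WT (median 0.15), from 0.0586 to 1.2 CPM in HET (median 0.335) and from 0.0564 to 70.8 CPM in HOM (median 0.477). S100a9 (chr3:90692632-90695721, minus strand), the other subunit, ran from 0.0919 to 0.458 CPM in WT (median 0.345), from 0 to 1.89 CPM in HET (median 0.419) and from 0.102 to 96.6 CPM in HOM (median 0.510). For both, HOM 3 was highest, HOM 2 next (3.75 and 4.91 CPM) and HET 2 after it (1.2 and 1.89 CPM), and the remaining libraries of all genotypes were below 1 CPM.

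The granule genes were again highest in HOM 3 and HOM 2. Ngp, a protein of neutrophil granules (chr9:110419747-110423012), ran from 0 to 0.280 CPM in WT (median 0.109), from 0 to 0.487 CPM in HET (median 0.118) and from 0.0338 to 89.8 CPM in HOM (median 0.342), with HOM 2 second at 4.10 CPM. Ltf, the iron-binding lactoferrin of the same granules (chr9:111019271-111042767), ran from 0 to 0.280 CPM in WT (median 0.0752), from 0 to 0.489 CPM in HET (median 0.208) and from 0 to 58.8 CPM in HOM (median 0.296), with HOM 2 second at 3.18 CPM. The following 7 values were 0 counts: S100a9 in HET 1, Ngp in WT 4 and HET 1, and Ltf in WT 4, HET 1, HET 5 and HOM 6. A count of 0 allows a level of up to 0.088 to 0.105 CPM at these depths, taking 3 counts as the upper limit and counting error only.

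Lcn2, lipocalin 2, which binds bacterial siderophores (chr2:32384633-32388252, minus strand), had the highest floor of the neutrophil genes. It ran from 0.704 to 1.36 CPM in WT (median 1.05), from 0.563 to 1.62 CPM in HET (median 1.00) and from 0.368 to 30.5 CPM in HOM (median 1.07). HOM 3 stood at 30.5 CPM, followed by HOM 2 at 2.53 and HOM 8 at 2.39 CPM, and the lowest library was HOM 4. In TPM, which accounts for transcript length and so allows genes to be compared, the medians over the 21 libraries without HOM 3 were 613 for Hbb-bs, 421 for Hba-a2, 322 for Hba-a1, 6.86 for Alas2, 3.49 for S100a8, 2.58 for Lcn2, 2.57 for S100a9, 0.41 for Ngp, 0.19 for Slc4a1 and 0.09 for Ltf. The ranges of neighbours in this order overlapped, except that the lowest Hba-a1 value (185 TPM) lay above the highest Alas2 value (19.8 TPM).

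In HOM against WT all 10 transcripts were higher and none passed the test over all genes. With edgeR's quasi-likelihood test and Benjamini-Hochberg adjustment, 0 of 10 had an adjusted p below 0.05, where 0.0943% of all 16974 genes tested did. The other tools also called 0 of 10, with limma voom at 0.1% of all genes, DESeq2 at 0.165% and limma-trend on TPM at 0.0707%. At an unadjusted edgeR p below 0.05 there were 8 of 10, against 5.91% of all genes, and the exceptions were Hbb-bs and Hba-a1. The median log2 fold change was 3.08 over the 10 transcripts and 0.01 over all genes. All 10 passed the filter on low counts, but Ngp and Ltf fell below it once HOM 3 was left out, so these counts and the median are no independent support.

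The fitted changes of the globins and Alas2 were smaller than those of the other members. The log2 fold change was 0.73 for Hbb-bs (SE 0.381), 0.79 for Hba-a1 (SE 0.414), 0.97 for Hba-a2 (SE 0.457) and 0.82 for Alas2 (SE 0.375), each with an edgeR adjusted p of 0.816. Slc4a1 stood at 4.19 (SE 1.42, edgeR adjusted p = 0.687), between Lcn2 and the other neutrophil genes. S100a8 was at 5.49 (SE 1.75), Ngp at 6.22 (SE 1.97) and Ltf at 5.94 (SE 1.94), each with an edgeR adjusted p of 0.645, S100a9 at 5.12 (SE 1.71, edgeR adjusted p = 0.662) and Lcn2 at 1.96 (SE 0.883, edgeR adjusted p = 0.816). No transcript had all HOM libraries above all WT libraries (0.118% of all genes did) or above all HET libraries (0.124%), nor all HET libraries above all WT libraries (0.0471%).

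One library, HOM 3, carried a large part of these differences. On the log2 scale its part was smaller for Hbb-bs, Hba-a1 and Alas2 than for Slc4a1, S100a8, S100a9 and Lcn2. It was set apart because it was highest for each transcript, and Ngp and Ltf passed the filter only with it. The count that follows is thus a description and no independent support. HOM 3 was the highest of 22 libraries for 10 of 10 transcripts, where it was highest for 17.1% of all genes tested. By summed counts it held 4.75 times the WT rate of Hbb-bs (exact 95% interval 4.67 to 4.83), 5.46 times that of Hba-a1 (5.34 to 5.59), 7.6 times that of Hba-a2 (7.44 to 7.77) and 5.41 times that of Alas2 (4.99 to 5.87). For Slc4a1 the ratio was 165 (129 to 216), from 1707 counts against 63 in 6 WT libraries. The neutrophil genes stood at 418 for S100a8 (298 to 605), 323 for S100a9 (250 to 424), 721 for Ngp (487 to 1120), 590 for Ltf (381 to 967) and 28.9 for Lcn2 (24.9 to 33.7). In this library each neutrophil gene, and Slc4a1, thus exceeded WT by a larger factor than the globins and Alas2 did. The intervals cover counting error only.

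Without HOM 3 the differences shrank. Of the 10 transcripts 8 were then tested, Ngp and Ltf being below the filter, and 0 of 8 were called by edgeR (0.0944% of 16951 genes), limma voom (0.0944%), DESeq2 (0.195%) and limma-trend on TPM (0.0531%). At an unadjusted edgeR p below 0.05 there were 2 of 8, Slc4a1 and S100a8, against 6.48% of all genes. All 8 were still higher in HOM, with a median log2 fold change of 0.45 against 0.00 over all genes. Hbb-bs was at 0.41 (SE 0.302), Hba-a1 at 0.42 (SE 0.318), Hba-a2 at 0.44 (SE 0.296) and Alas2 at 0.46 (SE 0.267), Slc4a1 at 1.24 (SE 0.544), S100a8 at 2.13 (SE 0.842), S100a9 at 1.69 (SE 0.854) and Lcn2 at 0.22 (SE 0.329). The edgeR adjusted p-values ran from 0.704 for S100a8 to 0.905 for Lcn2. By counts alone, Ngp held 5.95 times the WT rate in the other 9 HOM libraries (3.92 to 9.39, from 220 against 25 counts) and Ltf 5.57 times (3.49 to 9.36, from 165 against 20 counts). Without HOM 2 as well these were 2.5 (1.58 to 4.08) for Ngp and 2.21 (1.31 to 3.88) for Ltf. HOM 2 carried much of what was left for the neutrophil genes: without both HOM 2 and HOM 3, a setting chosen after the data were seen, S100a8 was at 1.13, S100a9 at 0.68, Slc4a1 at 0.80 and Lcn2 at 0.02, while the globins were at 0.42 to 0.48 and Alas2 at 0.50. The smallest edgeR adjusted p of the 8 was then 0.721.

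**Figure D2:**
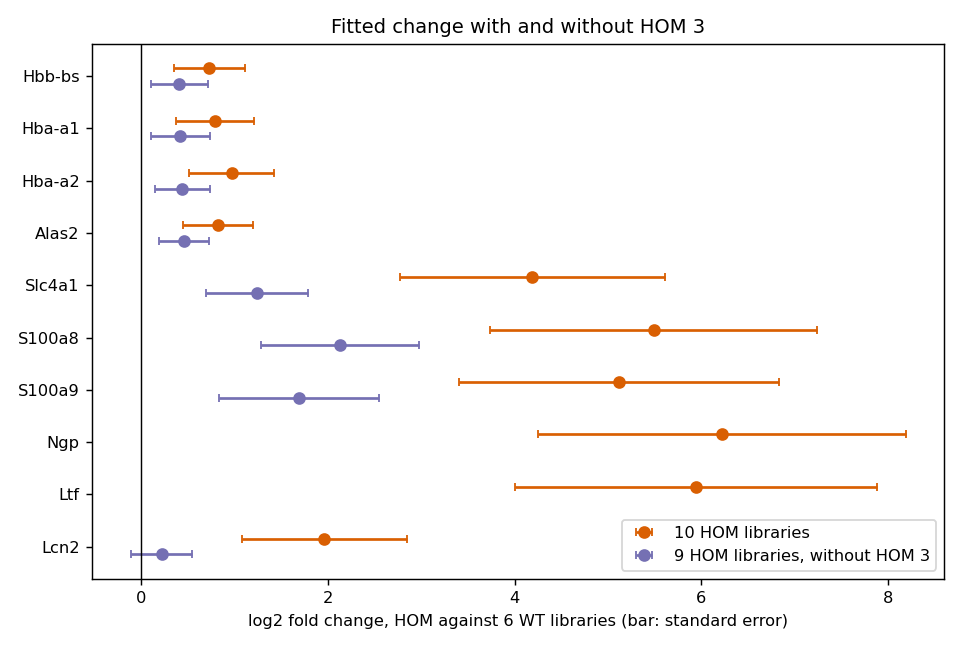
Fitted log2 fold change in HOM against 6 WT libraries (horizontal axis) for each transcript, with its standard error as a bar, using 10 HOM libraries or the 9 without HOM 3. Ngp and Ltf have no value without HOM 3, where they fell below the filter on low counts, and every other transcript lies closer to 0 without that library.

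The heterozygotes, compared with the same WT libraries, gave no call either. In HET against WT, 0 of 10 transcripts were called by edgeR or by any of the other 3 tools, as were 0.0% of all genes, and 0 of 10 had an unadjusted edgeR p below 0.05 (3.41% of all genes). Of the 10, 8 were higher and 2, Hba-a2 at -0.16 (SE 0.5) and Lcn2 at -0.01 (SE 1.02), were not. The largest value was that of S100a8 at 1.40 (SE 2.3, edgeR adjusted p = 1), and HET 2 alone gave 42 of its 87 counts in 6 HET libraries. Without HET 2 it was 0.77. Without HOM 3 the SE of the HET value was 0.971 and the edgeR adjusted p again 1, and 0 of 8 transcripts had an unadjusted edgeR p below 0.05 (4.27% of all genes).

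In HOM against HET all 10 were higher and 0 of 10 were called by edgeR (0.106% of all genes), limma voom (0.13%), DESeq2 (0.448%) or limma-trend on TPM (0.0648%). An unadjusted edgeR p below 0.05 was found for 7 of 10, against 8.79% of all genes, and the edgeR adjusted p-values ran from 0.355 for Ngp to 0.715 for Hba-a1. Without HOM 3, 0 of 8 were called by edgeR (0.136%), limma voom (0.118%), DESeq2 (0.49%) or limma-trend (0.0708%), and 0 of 8 had an unadjusted edgeR p below 0.05 (8.87%). The largest fitted values were then 0.82 for Slc4a1 (SE 0.521), 0.73 for S100a8 (SE 0.705) and 0.73 for S100a9 (SE 0.763). Without HOM 2 as well, S100a8 and S100a9 were at -0.27 and -0.29, so their direction rested on that library. This comparison shares the HOM libraries with that against WT, so the pair is not independent.

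Each library title opens with 39992, 40411 or 40412, a number whose meaning is not stated, and genotypes are unevenly divided among the 3: 1 WT and 5 HOM libraries under 39992, 2 WT, 1 HET and 3 HOM under 40411, and 3 WT, 5 HET and 2 HOM under 40412. Within the 3 sets the HOM minus WT difference of mean log2 of CPM plus 0.1 was 0.60, 0.53 and 0.72 for Hbb-bs, and 0.11 under 39992 without HOM 3. For S100a8 it was 2.37, -0.27 and 1.81, and 1.09 under 39992 without HOM 3. The S100a8 difference was thus negative in the 40411 set, where its geometric mean was 0.161 CPM in HOM and 0.215 CPM in WT. S100a9, Ngp and Ltf were also negative there (-0.40, -0.11 and -0.78), and Lcn2 was at 0.20 there, at -0.03 under 40412 and at -0.06 under 39992 without HOM 3. Among the red cell genes Hba-a2 and Alas2 were at -0.23 and -0.06 under 39992 without HOM 3, and positive in the other sets. With the title number as a term in the edgeR fit, Hbb-bs was at 0.83 and S100a8 at 3.26, and 0 of 10 transcripts were called.

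The libraries highest after HOM 3 differed between the 2 kinds of transcript. HOM 2 was at least 2-fold over the 22-library median for 5 of 5 neutrophil genes and for Slc4a1, but for none of the globins or Alas2, where 0.271% of all genes passed that mark in it. Its Hbb-bs level was 143 CPM, below the WT median, and its Hba-a1 level 67.4 CPM. Its Hba-a2 level of 114 CPM and its Alas2 level of 7.17 CPM lay above the WT medians of 73.7 and 6.13 CPM. Against WT by counts HOM 2 held 32.9 times the rate of Ngp (21.4 to 52.7), 31.9 times that of Ltf (19.7 to 54.4) and 22.1 times that of S100a8 (15 to 33.3). The factor was 7.48 for Slc4a1 (5.31 to 10.6) and 0.869 for Hbb-bs (0.843 to 0.896). For Hba-a1 it was 0.876 (0.838 to 0.915), for Hba-a2 1.55 (1.49 to 1.6) and for Alas2 1.14 (0.988 to 1.31).

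In HOM 7 and HOM 9 the red cell genes stood out. HOM 7 passed the 2-fold mark for 3 of 5 red cell genes, Hbb-bs, Alas2 and Slc4a1, and 0 of 5 neutrophil genes (0.307% of all genes), with 364 CPM of Hbb-bs, 14.1 CPM of Alas2 and 2 counts of S100a8 (0.0564 CPM). HOM 9 passed it for 5 of 5 red cell genes and 2 of 5 neutrophil genes, Ngp and Ltf (0.265% of all genes), with 528 CPM of Hbb-bs, 18.7 CPM of Alas2 and 0.490 CPM of S100a8. HET 2 passed it for 3 of 5 neutrophil genes, S100a8, S100a9 and Ltf, and 0 of 5 red cell genes (0.224% of all genes). No WT library passed it for any of the 10, where 0.313%, 0.165%, 0.254%, 0.371%, 0.289% and 0.324% of all genes passed it in WT 1 to WT 6. Only HOM 3 passed it for all 10, beside 4.75% of all genes. Of the others, HOM 5 passed it for 1 red cell and 2 neutrophil genes, HET 6 for 1 of each, and HET 4, HOM 1, HOM 8 and HOM 10 for 1 neutrophil gene each. No share of all genes is given for these, so their numbers cannot be set against a background. The gene was Ltf in HET 4, HOM 1 and HOM 10, at 11, 13 and 9 counts. The libraries named in this comparison were singled out after their values were seen.

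**Figure D3:**
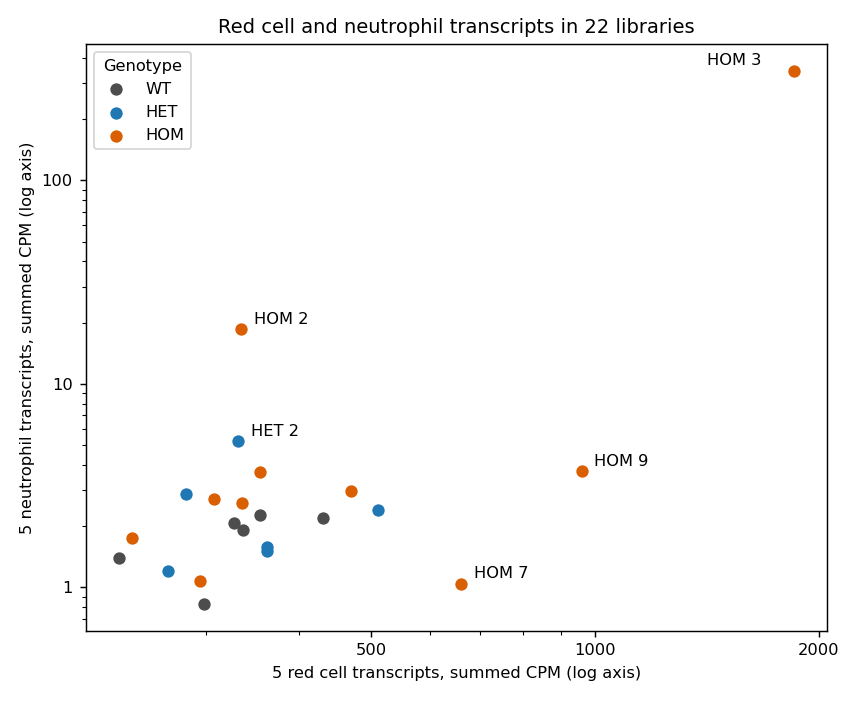
Summed CPM of the 5 red cell transcripts (horizontal, log axis) against that of the 5 neutrophil transcripts (vertical, log axis) in each of 22 libraries, coloured by genotype. HOM 3 lies at 1850 and 346 CPM, HOM 2 is second on the neutrophil axis (18.5 CPM) at 334 CPM of red cell transcripts, and HOM 9 and HOM 7 come next after HOM 3 on the red cell axis (960 and 661 CPM).

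Across the 21 libraries without HOM 3, Hbb-bs varied together with Alas2, and S100a8 with Ngp. Levels were taken as log2 of CPM plus 0.1, and 6 pairs were compared with two-sided permutation tests (100000 resamples) and Benjamini-Hochberg adjustment over the 6. Hbb-bs and Alas2 gave a Pearson r of 0.95 (permutation p = 1e-05, the smallest the resamples can give; adjusted 3e-05) and a Spearman rho of 0.84 (permutation p = 2e-05, adjusted 0.00012). Without HOM 9 and HOM 7, the 2 libraries farthest from the Hbb-bs median, r was 0.85, and it was 0.79, 0.97 and 0.98 within the sets 39992, 40411 and 40412 (5, 6 and 10 libraries). S100a8 and Ngp gave an r of 0.89 (permutation p = 1e-05, adjusted 3e-05) and a rho of 0.75 (permutation p = 0.00014, adjusted 0.00042). Without HOM 2 and HET 2 that r was 0.77, and it was 0.96, 0.87 and 0.72 within the sets.

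For Hbb-bs with S100a8 no relation was detected. The pair gave an r of -0.07 (permutation p = 0.744, adjusted 0.744) and a rho of 0.04 (permutation p = 0.872, adjusted 0.872), with 0.21, -0.16 and 0.14 within the sets and -0.02 without HOM 9 and HOM 7. With HOM 3 included r became 0.51, and rho was 0.16, so that value rests on that library. A missed threshold does not show that the pair is unrelated. S100a8 and Lcn2 gave an r of 0.45 (permutation p = 0.0412, adjusted 0.0823) and a rho of 0.31 (permutation p = 0.167, adjusted 0.201), falling to 0.13 without HOM 2 and HET 2. Within the sets it was 0.80, 0.79 and 0.26.

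For Slc4a1 no relation with Hbb-bs passed the test. With Hbb-bs it gave an r of 0.41 (permutation p = 0.0661, adjusted 0.0981) and a rho of 0.37 (permutation p = 0.101, adjusted 0.199), 0.16 without HOM 9 and HOM 7, and 0.06, 0.93 and 0.69 within the sets. A pair of relations was added after the levels had been seen and adjusted together. Slc4a1 and Ngp gave an r of 0.69 (permutation p = 0.00102, adjusted 0.00204) and a rho of 0.64 (permutation p = 0.00221, adjusted 0.00442). Without HOM 2 and WT 4 that r was 0.37 (permutation p = 0.117, adjusted 0.235), so it rested on those libraries, while rho was 0.52 (permutation p = 0.0243, adjusted 0.0486), and within the sets r was 0.93, 0.34 and 0.75. Slc4a1 and S100a8 gave an r of 0.49 (permutation p = 0.026, adjusted 0.026), a rho of 0.25 (permutation p = 0.269, adjusted 0.269), an r of -0.04 without the same 2 libraries, and 0.93, 0.00 and 0.34 within the sets.

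The ratio of Slc4a1 to beta globin set 2 libraries apart. Per 1000 counts of Hbb-bs there were 66.5 counts of Slc4a1 in HOM 3 and 16.4 in HOM 2, against 0.381 to 4.0 in the other 20 libraries (median 2.03). The ratio of Alas2 to Hbb-bs did not do this: it lay between 32.7 and 50.1 per 1000 in all 22 libraries. So HOM 3 held 4.75 times the WT Hbb-bs rate with an Alas2 ratio inside the range of the others, and a Slc4a1 ratio far above it. These ratios of counts are compared between libraries and say nothing of the relative level of the 2 genes.

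The split between the alpha globin genes differed by title number, with WT 1 beside the HOM libraries of its number. The count ratio of Hba-a2 to Hba-a1 was 1.33 to 2.35 in the 6 libraries of 39992 (median 1.66), which hold WT 1 at 2.35 and HOM 5 at 2.28, and 0.529 to 1.03 in the other 16 libraries (median 0.694). The 2 sets do not overlap. The sum of both alpha genes over the sum of both beta genes separated them too, at 0.965 to 1.16 under 39992 against 0.659 to 0.763 in the others, and these sums do not depend on how reads were split between copies. The ratio of Hbb-bs to Hbb-bt was 3.72 to 5.51 under 39992 and 5.28 to 6.75 in the others, which overlap. The pattern was noticed in these data and is given as a description. Under 39992 are 5 of the 10 HOM libraries, HOM 3 among them, and 1 of the 6 WT libraries. The fitted log2 fold change of Hba-a2 in HOM against WT was 0.97. It was 0.58 with the title number in the fit, and 0.44 without HOM 3. The parts of the title number and of HOM 3 in this change were not tested.

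**Figure D4:**
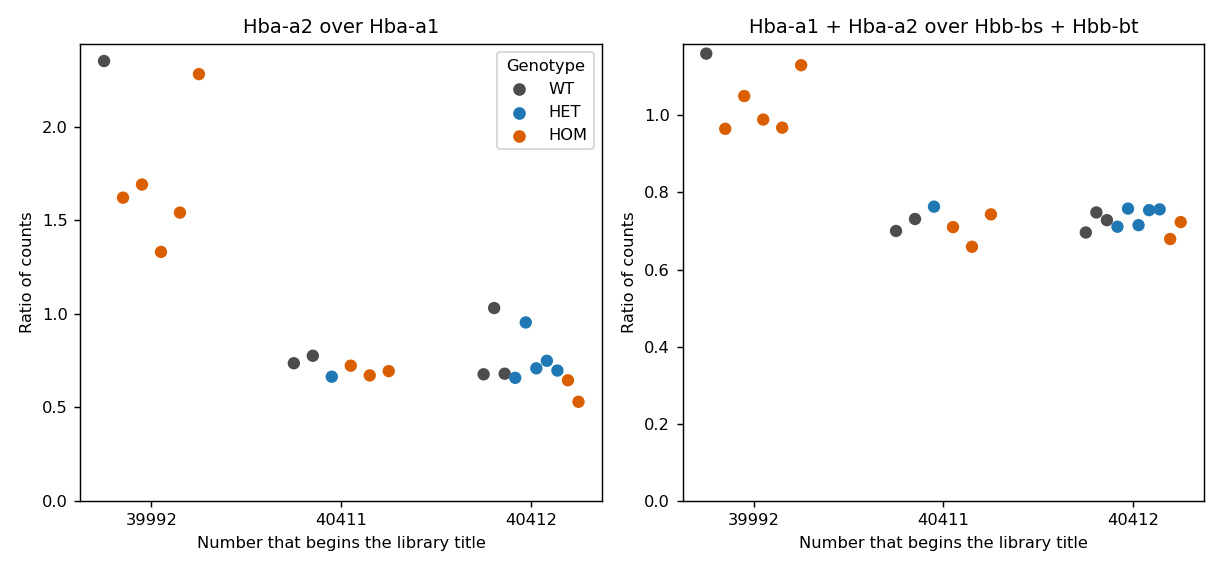
Ratio of counts of Hba-a2 to Hba-a1 (left) and of both alpha globin genes to both beta globin genes (right) in each library, by the number that begins the library title and coloured by genotype. All 6 libraries of 39992, 1 WT and 5 HOM, lie above all others in both panels.

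Other genes of the 2 lineages, and of other blood and tissue cells, were read from 18 lists with 169 matched genes, and 1 listed symbol had no match. Of the 94 tested genes on these lists, 0 were called in HOM against WT by edgeR, limma voom, DESeq2 or limma-trend on TPM, and 13 had an unadjusted edgeR p below 0.05. Over all genes edgeR called 0.0943%, and 5.91% had such an unadjusted p. Hbb-bt was at 210 CPM in HOM 3 and 18.4 to 79.0 CPM elsewhere, with a log2 fold change of 0.93 in HOM against WT (SE 0.457, edgeR adjusted p = 0.816). The embryonic globins Hbb-bh1, Hbb-bh2 and Hba-x had 0 counts in all 22 libraries, which allows up to 0.00416 CPM over the series, and the embryonic Hbb-y had 8 counts in all. Of the 11 red cell membrane genes 10 were highest in HOM 3, and of the 10 erythroid regulators and precursor genes 8, where HOM 3 was highest for 16.8% of all genes with at least 10 counts. The Rh-associated glycoprotein (Rhag) had 78 counts in HOM 3 and 3 in the other 21 together, and the transcription factor Gata1 57 and 6. These and the count values of other untested genes were chosen after they were seen. The mark of 10 counts includes those of HOM 3, and Rhag and Gata1 reached it only with that library. A gene that does so tends to be highest there, so the numbers of genes highest in HOM 3 are no independent support.

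Genes of heme synthesis, which every cell needs, did not follow Alas2. Their summed level was 354 CPM in HOM 3 and 340 to 381 CPM elsewhere, and 4 of the 10 were highest in HOM 3. Cpox was 55.2 CPM there, below the lowest other library at 63.0 CPM. In HOM against WT 6 of the 10 were higher, with a median log2 fold change of 0.03 against 0.01 over all genes. Of the 10, 0 were called by any of the 4 tools and 1 had an unadjusted edgeR p below 0.05, against 0.0943% and 5.91% of all genes by edgeR.

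The further neutrophil genes differed between HOM 2 and HET 2. In HOM 3 all 5 azurophil granule genes (the earliest granules, with myeloperoxidase) and all 8 genes of later granules were highest of 22. So were 14 of the 14 detected genes of mature neutrophils, where HOM 3 was highest for 16.8% of all genes. Detected here means at least 10 counts over all 22 libraries, HOM 3 included. A gene that passes through HOM 3 tends to be highest there, so these numbers are no independent support for HOM 3. Mpo had 534 counts there and 48 in the other 21 libraries, Elane 161 and 14, Camp 845 and 76, and Chil3 842 and 106. Leaving HOM 3 aside, HOM 2 was the highest of 21 for 4 of 4 detected azurophil genes, 7 of 8 later granule genes and 1 of 13 detected mature neutrophil genes, where it was highest for 3.49% of all genes with at least 5 counts. HET 2 was the highest for 0 of 4, 0 of 8 and 7 of 13, where it was highest for 4.44% of all genes. HOM 9 was the highest of 21 for 3 of the 5 red cell members (4.38% of all genes) and HOM 7 for 0 of 5 (4.11%). The genes topped by HET 2 included Csf3r (8.19 CPM), Cxcr2 (2.21 CPM) and Lrg1 (1.2 CPM), and those topped by HOM 2 included Camp (34 of the 76 counts in 21 libraries), Chil3 (41 of 106) and Mpo (12 of 48). The counts behind most of these genes are small, and the difference between the 2 libraries has no replicate.

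Lists of other blood cells were high in HOM 3 as well. The summed level of platelet genes was 29.8 CPM against 6.46 to 9.37 CPM in the other 21, that of monocyte genes 122 CPM against 8.85 to 13.1 CPM, and that of B and T cell genes 121 CPM against 24.1 to 45.8 CPM, with no gene of these lists at 0 in HOM 3. The sum of marrow progenitor genes was 56.8 CPM against 53.0 to 61.0 CPM, most of it from Kit (34.1 CPM) and Cd34 (21.3 CPM). Of the 5 genes of this list with at least 10 counts, HOM 3 was highest for 1, Rag1 (1.19 CPM against at most 0.702 CPM). Among all genes with at least 10 counts that share was 16.8%. In HOM 2 the platelet sum was 9.16 CPM, the monocyte sum 10.5 CPM and the peripheral nerve sum 134 CPM, all inside the range of the others. The neutrophil genes of HOM 2 were thus high beside an ordinary peripheral nerve sum.

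**Figure D5:**
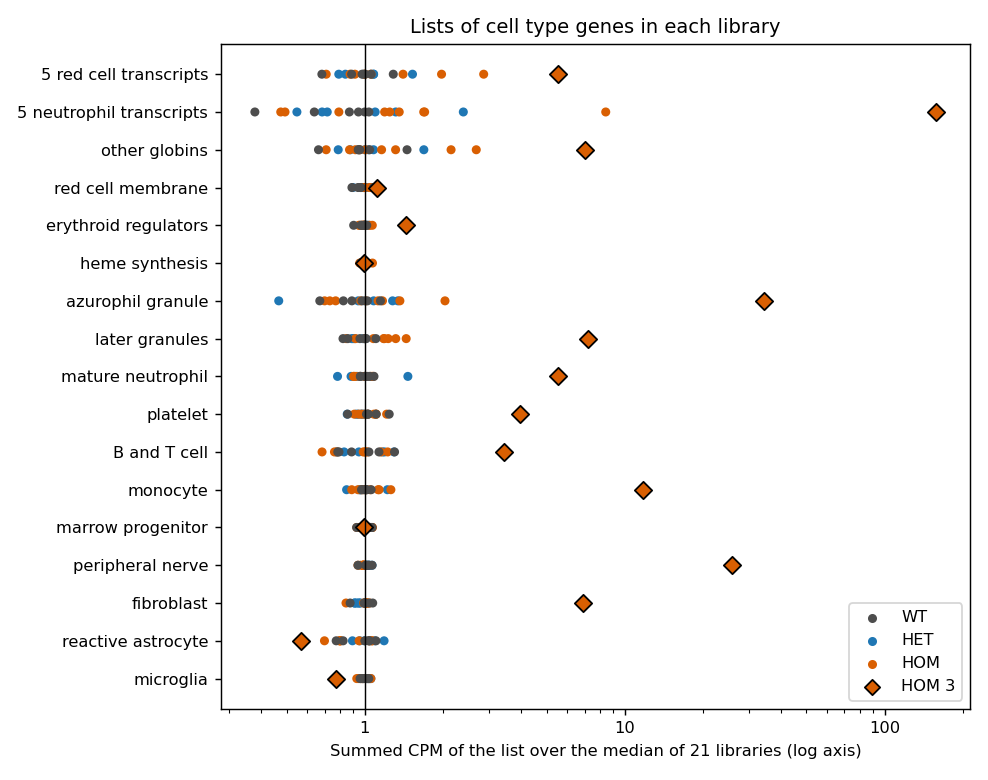
Summed CPM of each gene list in each library over the median of the 21 libraries without HOM 3 (log axis); circles are libraries coloured by genotype and the diamond is HOM 3. HOM 3 lies to the right of all others for most blood cell lists and for peripheral nerve and fibroblast. It lies within their range for heme synthesis, marrow progenitor and red cell membrane. Of the red cell membrane sum in HOM 3, Ank1 makes 404 of 455 CPM, and 10 of the 11 genes were highest there. HOM 3 lies to the left for microglia and for reactive astrocyte. Of the reactive astrocyte sum in HOM 3, Gfap makes 683 of 1040 CPM, and 7 of the 12 genes were highest there.

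The genes most like the members were sought among all genes of mean at least 0.5 CPM by Pearson r of log2 levels over the 21 libraries. For the mean of the red cell genes these were Hbb-bt (r = 0.942), Ube2l6 (0.788), Isg20 (0.735), Slc10a3 (0.652) and Tent5c (0.649). Of these, Hbb-bt, Ube2l6 (16.3 CPM against at most 11.6 CPM), Isg20 (3.07 against 1.15 CPM) and Tent5c (26.0 against 9.65 CPM) were also highest in HOM 3, a library the ranking did not use, and Slc10a3 was not. HOM 3 was highest for 17.1% of all genes tested. For the mean of the neutrophil genes the nearest were Pdhb (0.674), Zfp280b (0.667), Zfp93 (0.655), Etv3 (0.651) and Ppm1j (0.632). None of these 5 was above its range of the other 21 libraries in HOM 3. Each set of 5 holds the highest r of many genes, so these r values are no test of a relation.

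Lcn2 was set beside Gfap, the intermediate filament of astrocytes, because reactive astrocytes can make Lcn2. Gfap was 683 CPM in HOM 3 and 1110 to 1980 CPM in the other 21, with HOM 2 the lowest of these, so the 2 libraries highest in Lcn2 were the lowest in Gfap. Gfap is 1 of 12 listed genes of reactive astrocytes, and 7 of the 12 were highest in HOM 3, Steap4 (5.44 CPM against at most 0.453 CPM) and S1pr3 (18.3 CPM against at most 7.92 CPM) among them. Over the 21 libraries r was -0.39 (permutation p = 0.0818, adjusted 0.0981) and rho -0.34 (permutation p = 0.133, adjusted 0.199). It was -0.46 without HOM 2 and HOM 4, and -0.78, -0.97 and -0.54 within the sets 39992, 40411 and 40412. The sign was negative in each set, and the pooled relation did not pass the adjusted threshold.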

How the data were processed

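Per the file headers, each deposited table is RSEM gene output with an expected count and a TPM for every Ensembl gene ID, computed by the authors from polyA-selected RNA read from both ends. Bowtie2 2.2.0 and RSEM 1.2.12 are named, without further detail, per the submitters' processing notes. Which reference, gene models and strand option went into the counts is not given in the sources used here. RSEM divides reads that fit several genes, and 14.41% to 16.23% of the expected counts in a library were not whole; they were rounded.

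Members were matched by Ensembl ID: 37607 of 38924 IDs had a symbol and a GRCm38 position in GENCODE M21, the source of the positions printed. Genes passing filterByExpr (16974 with 22 libraries, 16951 without HOM 3) were scaled by TMM and tested by the robust quasi-likelihood method of edgeR 4.0.16 under R 4.3.3, all genotypes in 1 model. An adjusted p (Benjamini-Hochberg over all tested genes) below 0.05 was called. CPM uses TMM-adjusted totals. The alternatives were DESeq2 1.42.0, limma 3.58.1 (voom, and trend on log2 of the deposited TPM plus 1 or 0.1), DESeq2 size factors, no filter, the title number as covariate, the compared groups alone and each library left out. Of these fits, only that of edgeR for HOM against WT was tested on simulated data, in which no library was made to stand apart as HOM 3 does. Intervals are exact binomial intervals of summed counts.

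The members and all gene lists were chosen with earlier results of these data known. Other genes named were up to 3 per list with the smallest p in HOM against WT (mean at least 0.1 CPM), the 5 most like each cell type's members, Gfap and Prx; the rest were chosen after their values were seen. Some listed genes are not reported here.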

Additional observations from a re-analysis of the deposited data

Results flagged for a closer look

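Within each genotype, a library was singled out where its distance from its nearest neighbour was a large part of the group's whole range (Dixon's test at the 95% level), and 11 of 30 groups of values gave such a library, 8 of them through HOM 3. HOM 3 was set apart as the highest HOM library for Hba-a2 (559 CPM), Alas2 (34 CPM), Slc4a1 (51.9 CPM), S100a8 (70.8 CPM), S100a9 (96.6 CPM), Ngp (89.8 CPM), Ltf (58.8 CPM) and Lcn2 (30.5 CPM). For Hbb-bs and Hba-a1 it was also the highest, but it was not set apart. Its distance from HOM 9 was 0.375 and 0.457 of the range, below the critical value of 0.466, narrowly so for Hba-a1. Outside HOM, WT 6 was set apart for Alas2 (9.16 CPM), and HET 2 for S100a8 (1.2 CPM) and S100a9 (1.89 CPM). At this level chance alone sets a library apart in some groups, and groups of the same libraries are not independent.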

How the results depend on the processing

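No transcript was called in any of the 3 comparisons under any alternative, with or without HOM 3. The smallest adjusted p with HOM 3 kept, or with 1 library left out of edgeR, was 0.392 in HOM against WT (DESeq2). It was 0.826 in HET against WT (limma-trend on log2 of TPM plus 0.1) and 0.261 in HOM against HET (edgeR without HOM 10). Without HOM 3, limma-trend on log2 of TPM plus 1 gave 0.74 in HET against WT. Leaving out 1 library at a time, the log2 fold change in HOM against WT ran from 0.41 to 0.83 for Hbb-bs, 0.42 to 0.94 for Hba-a1, 0.44 to 1.2 for Hba-a2, 0.46 to 0.95 for Alas2, 1.24 to 4.35 for Slc4a1, 2.13 to 5.72 for S100a8, 1.69 to 5.27 for S100a9, 0.22 to 2.09 for Lcn2, 5.94 to 6.6 for Ngp and 5.68 to 6.52 for Ltf; the last 2 have no value without HOM 3. Small HET against WT values changed sign: Hba-a2 ran from -0.29 to 0.06 (without WT 1), Ngp from -0.10 (without HET 2) to 0.91, and Lcn2 from -0.17 to 0.12; Lcn2 turned to 0.26 with the title number as covariate and to 0.07, 0.12, 0.06, 0.03 and 0.05 without WT 5, HET 4, HET 5, HET 6 and WT 6. Without both HOM 2 and HOM 3, a setting chosen after seeing the data, S100a8 and S100a9 in HOM against HET turned to -0.27 and -0.29. With all 22 libraries r became 0.51 for Hbb-bs and S100a8, 0.72 for Hbb-bs and Slc4a1, 0.84 for S100a8 and Lcn2 and -0.78 for Lcn2 and Gfap; S100a8 and Lcn2 also passed at 0.56 on log2 of CPM plus 1 and at 0.50 after genotype means were subtracted, and Slc4a1 and S100a8 turned to -0.04 without HOM 2 and WT 4. The cause of these changes was not tested. No paired analysis was possible because the replicate numbers follow the order of deposition and the labels pair no libraries. Depth limits S100a8, S100a9, Ngp, Ltf and Slc4a1, of which several libraries hold under 10 counts.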
